A study of Mus musculus with 6 samples.

Results

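The genes described here are 37 genes of glycolysis, lactate and pyruvate metabolism, chosen by symbol: glucose transporters, the enzymes of each glycolytic step, lactate dehydrogenase, lactate transporters, the mitochondrial pyruvate carrier, and pyruvate dehydrogenase with its kinases. All 37 were among the 23364 gene symbols measured, and 27 of them had 1 transcript. RNA-seq covered 3 libraries of GFP-sorted osteoblasts and 3 libraries of chondrocytes from C57BL/6 mice on postnatal day 1. Osteoblasts came from the calvaria, the skull roof, were labelled Sp7 positive (one label reads Sp7-GFP), and were released with Liberase. Chondrocytes came from the rib, were labelled WT, and were released with Pronase and Collagenase D, with no sort named. Cell type, skeletal site, sorting, genotype and enzyme change together between the groups, and their parts cannot be told apart. The labels do not say whether libraries of a group came from separate animals, so p-values measure the spread between these libraries.

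Glycolysis splits glucose into pyruvate, and each of its steps is run by an enzyme that often has several isoenzymes encoded by separate genes. Pyruvate is either reduced to lactate and exported, or carried into mitochondria, where pyruvate dehydrogenase turns it into acetyl-CoA for the tricarboxylic acid cycle. Osteoblasts and chondrocytes are both known as strongly glycolytic cells. Cartilage has no blood vessels, and its cells live at low oxygen.

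Values are RPKM (reads scaled to transcript length and library depth), summed over the transcripts of a gene, and a log2 difference subtracts chondrocytes from osteoblasts after taking log2(RPKM + 1). At the depths estimated from steps in the low values, 1 RPKM in a 2 kb transcript stood for 53.8 to 69.2 reads in osteoblast libraries and 67.1 to 71.7 reads in chondrocyte libraries. The labels held against defining genes: summed osteoblast markers were 33232 to 35522 RPKM in osteoblasts and 4296 to 14381 RPKM in chondrocytes, and summed chondrocyte markers were 258 to 300 RPKM in osteoblasts and 37078 to 65659 RPKM in chondrocytes. Chondrocyte replicate 3 had the osteoblast marker sum of 14381 RPKM. The bone collagen gene Col1a1 had 2270.5, 2259.3 and 7765.2 RPKM in chondrocyte replicates 1 to 3. The part of this in the glycolysis results was not tested. Col1a1 held 5.99% to 6.6% of the RPKM of osteoblast libraries. Col2a1, the main collagen of cartilage, held 9.43% to 17.75% of that of chondrocyte libraries. The median log2 difference over all 11218 tested genes was 0.43 on the deposited values, and 0.01 after median-of-ratios scaling, which sets the typical gene level between libraries. Small differences are therefore read against that shift.

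In hexokinase, one isoenzyme gene was higher in osteoblasts and another in chondrocytes. Glucose uptake and the control of phosphofructokinase had such pairs too. There the filter for testing, given below, fixed the direction of the genes higher in osteoblasts, Slc2a3 and Pfkfb4. Chondrocytes had more RNA of the glucose transporter gene Slc2a1, the hexokinase gene Hk2, the regulator Pfkfb3, the aldolase gene Aldoc, the lactate dehydrogenase subunit gene Ldhb, the lactate transporter gene Slc16a1 and the kinase gene Pdk1, by 1.52-fold to 20.8-fold. Osteoblasts had more RNA of Slc2a3, Hk1, Pfkfb4, Pgam2 and Eno2, by 1.87-fold to 8.98-fold. These 7 lower and 5 higher calls in osteoblasts held on the deposited values and under all 4 other scalings (limma, Benjamini-Hochberg adjusted p under 0.05 each time). By the same rule 13.5% of all tested genes were lower and 30.4% were higher in osteoblasts, against 7 and 5 of the 35 tested glycolysis genes. Each scaling lowered osteoblast values relative to chondrocyte values, and all 1512 genes called lower as deposited stayed lower under all 4. Holding under the scalings therefore adds no support to the 7 lower calls. For the higher calls the rule came to the call under median-of-ratios scaling, with 3415 genes either way. Slc2a3, Pfkfb4 and Pgam2 met the filter of at least 1 RPKM in at least 3 libraries only with the help of the osteoblast libraries, and Aldoc only through the chondrocyte libraries. The filter fixed the direction of these 4 genes, which is not read as support. In bulk RNA, fewer cells of a type and less RNA per cell cannot be told apart.

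On the deposited values alone, 19 of the 35 tested genes were called higher in osteoblasts, which is 54.3%, and 7 were called lower. Over all tested genes 55.5% were called higher and 13.5% lower, and the median log2 difference was 0.43 both for the glycolysis genes and for all tested genes. The share called higher was thus near the background and is not a result about these genes. Under median-of-ratios scaling 5 were higher and 10 were lower, against a background of 30.4% higher and 30.9% lower. Upper-quartile scaling gave 7 and 10, against 33.0% and 28.4%, and equal RPKM sums without matrix genes gave 9 and 8, against 39.5% and 24.2%. Without chondrocyte replicate 2 the deposited values gave 23 and 7, against 56.3% and 16.9%. Groups did not overlap for 19 genes higher in osteoblasts and 7 higher in chondrocytes, where 60.4% and 15.3% of all tested genes did so. Hk3 and Pfkfb1 did not pass the filter.

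**Figure D1:**
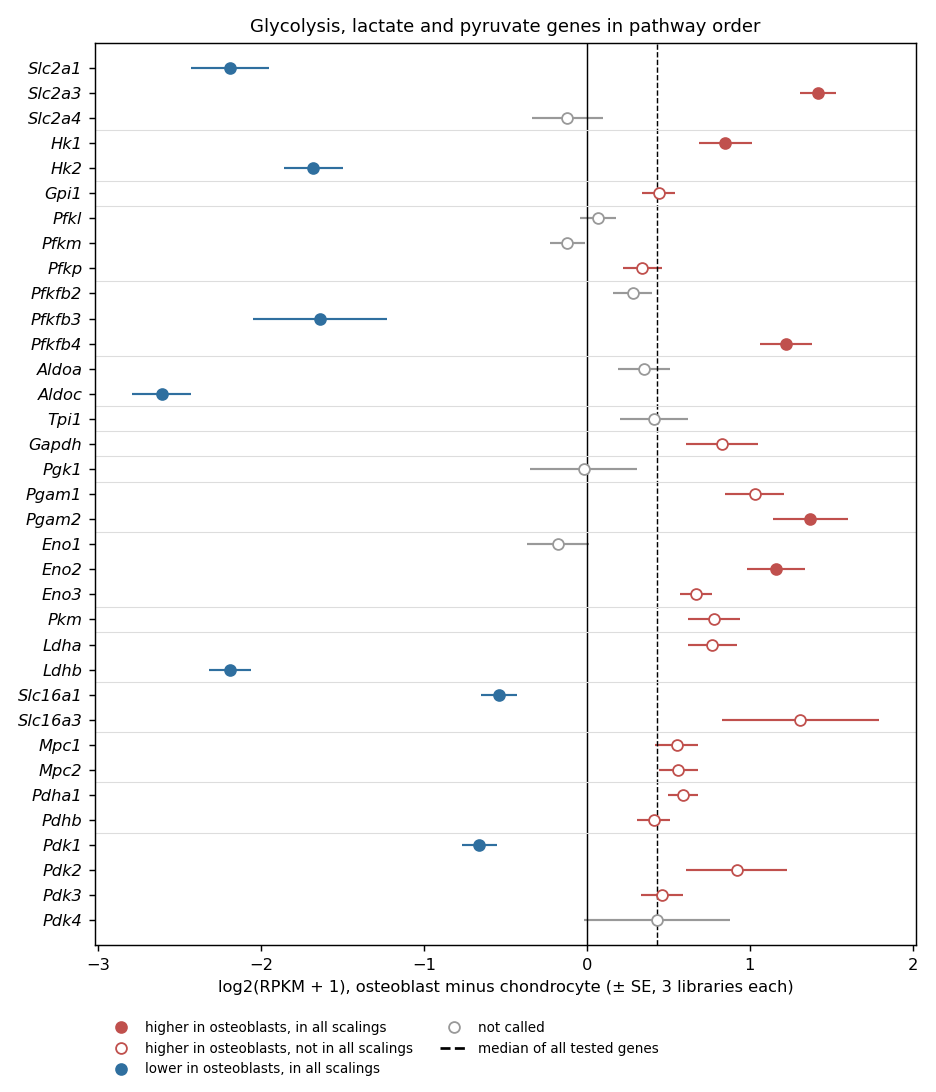
Log2 differences (chondrocyte subtracted from osteoblast, as log2(RPKM + 1), with SE from limma, n = 3 libraries each) of the 35 tested genes in pathway order. Filled points are calls that held under every scaling, and the dashed line is the median of all tested genes at 0.43. The 7 filled points on the left run from -2.61 for Aldoc to -0.54 for Slc16a1, and the 5 on the right from 0.85 for Hk1 to 1.42 for Slc2a3.

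Glucose enters cells through facilitative transporters. Slc2a1 encodes GLUT1, the general transporter of many tissues, and had 5.05, 4.15 and 4.24 RPKM in osteoblasts, against 25.5, 33.7 and 16.1 RPKM in chondrocytes. Every chondrocyte library lay above every osteoblast library, 5.6-fold in the mean (log2 difference -2.19 ± 0.24 SE; limma, p adjusted by Benjamini-Hochberg = 0.000208). Slc2a3 encodes GLUT3, the high-affinity transporter known from neurons, and had 3.54, 2.73 and 3.14 RPKM in osteoblasts, against 0.495, 0.57 and 0.562 RPKM in chondrocytes. Here the order was turned, and osteoblasts were 5.79-fold higher (1.42 ± 0.11 SE, limma adjusted p = 3.34e-05). Only the osteoblast libraries brought Slc2a3 past the filter. Slc2a4 encodes the insulin-responsive GLUT4 of muscle and fat and averaged 1.07 ± 0.0793 RPKM in osteoblasts and 1.33 ± 0.783 RPKM in chondrocytes (mean ± SD, n = 3 each), with no call. Of the summed RPKM of the 3 transporters, Slc2a1 held 51.6% ± 1.34 in osteoblasts and 93.1% ± 1.1 in chondrocytes, and Slc2a3 held 36.1% ± 1.2 and 2.21% ± 0.901 in the same order (± SD, n = 3 each). The sum of the 3 was 3.1-fold higher in chondrocytes, at 9.74, 7.87 and 8.47 RPKM in osteoblasts, against 27.0, 36.5 and 17.4 RPKM in chondrocytes.

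Hexokinase traps glucose in the cell by phosphorylation. Hk1, the widely expressed form, had 16.2, 15.7 and 15.7 RPKM in osteoblasts, against 8.91, 6.36 and 10.2 RPKM in chondrocytes (log2 difference 0.85 ± 0.16 SE, limma adjusted p = 0.0021). Hk2, the inducible form of muscle and fat, had 4.1, 3.95 and 3.29 RPKM in osteoblasts, against 18.3, 14.8 and 10.8 RPKM in chondrocytes (-1.68 ± 0.18 SE, limma adjusted p = 0.000173). Neither gene's groups overlapped, and the leading form differed: Hk1 held 79.8% ± 1.36 of hexokinase RPKM in osteoblasts and 37.1% ± 10.1 in chondrocytes (± SD, n = 3 each). Hk2 held 19.9%, 20.0% and 17% in osteoblasts, against 66.9%, 69.9% and 51.2% in chondrocytes. Hk3, the form of blood cells, averaged 0.249 RPKM in osteoblasts and 0.0624 RPKM in chondrocytes. The summed hexokinase RPKM lay closer together than either gene, at 19.9 ± 0.662 in osteoblasts and 23.2 ± 3.58 in chondrocytes, 1.17-fold higher in chondrocytes.

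**Figure D2:**
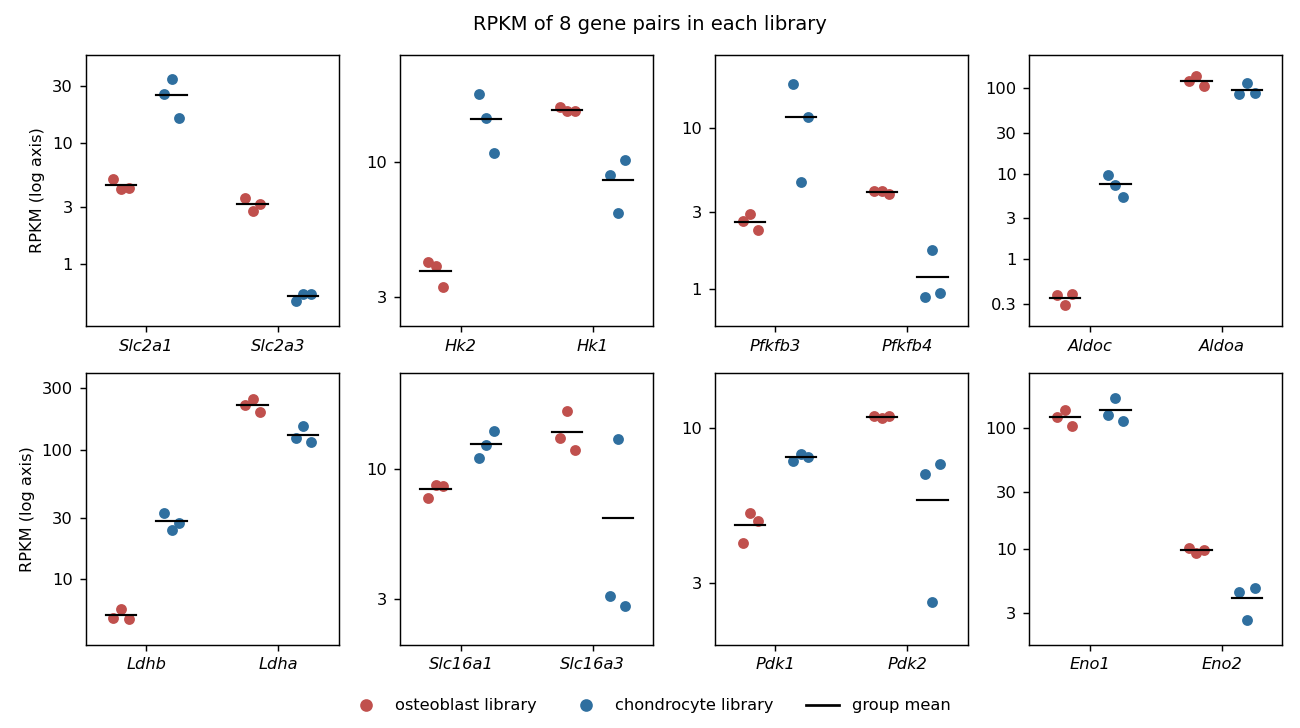
RPKM (log axis) of 8 pairs of related genes in each library, osteoblasts left of chondrocytes, with 1 point a library and a bar at the group mean (n = 3 each). In the pairs Slc2a1 and Slc2a3, Hk2 and Hk1, and Pfkfb3 and Pfkfb4, all chondrocyte points lie above all osteoblast points for the first gene and below them for the second. The filter for testing fixed the direction of Slc2a3 and Pfkfb4.

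Glucose-6-phosphate isomerase, encoded by Gpi1, had 48.3, 49.7 and 45.1 RPKM in osteoblasts, against 34.0, 37.2 and 33.3 RPKM in chondrocytes. The groups did not overlap and the gene was called as deposited (log2 difference 0.44, limma adjusted p = 0.00454), but under median-of-ratios scaling the difference was -0.05. Phosphofructokinase, the committing step, has 3 subunit genes. Pfkl, the liver form, had 15.8, 15.8 and 14.1 RPKM in osteoblasts, against 15.8, 14.8 and 12.8 RPKM in chondrocytes, and Pfkm, the muscle form, had 14.7, 13.7 and 13.9 RPKM in osteoblasts, against 17.4, 14 and 15 RPKM in chondrocytes. The groups overlapped for both, and neither was called as deposited. Pfkm was lower in osteoblasts under all 4 other scalings (-0.6 with median-of-ratios, limma adjusted p = 0.00111), and Pfkl under 2 of them. Pfkp, the platelet form, had 5.48, 5.13 and 4.23 RPKM in osteoblasts, against 3.58, 4.12 and 3.38 RPKM in chondrocytes. Its call as deposited (0.34, limma adjusted p = 0.0385) was lost under all 4 other scalings and in 4 of 6 fits with 1 library left out, those without osteoblast replicate 1 or 2 or chondrocyte replicate 1 or 3 (limma adjusted p = 0.144, 0.119, 0.0939 and 0.1). Pfkl held 44.4% ± 1.04 of the phosphofructokinase RPKM in osteoblasts and 43.0% ± 1.95 in chondrocytes (± SD, n = 3 each), a difference within the spread.

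The Pfkfb genes encode bifunctional enzymes that make and break down fructose 2,6-bisphosphate, the main activator of phosphofructokinase. Pfkfb3, the form with the strongest balance towards synthesis, had 2.64, 2.93 and 2.32 RPKM in osteoblasts, against 19.0, 4.63 and 11.8 RPKM in chondrocytes. All chondrocyte libraries were higher, but they ranged widely among themselves (log2 difference -1.64 ± 0.41 SE, limma adjusted p = 0.00915). Pfkfb4 had 4.09, 4.09 and 3.92 RPKM in osteoblasts, against 0.893, 1.75 and 0.944 RPKM in chondrocytes (1.22 ± 0.16 SE, limma adjusted p = 0.000378). By its chondrocyte libraries alone the gene would not have been tested. Pfkfb3 held 25.7% ± 1.96 of the family's RPKM in osteoblasts and 71.0% ± 15.3 in chondrocytes, and Pfkfb4 held 39.5% ± 1.25 and 10.1% ± 8.88 in the same order (± SD, n = 3 each). Among the transcripts of Pfkfb3, NM_133232 was the most abundant in every library, with 58.8% ± 8.23 of the gene's RPKM in osteoblasts and 77.4% ± 4.77 in chondrocytes. Pfkfb2, the heart form, had 2.92, 3.32 and 3.15 RPKM in osteoblasts, against 2.84, 1.95 and 2.45 RPKM in chondrocytes and was not called (0.28, and -0.09 under median-of-ratios scaling). Pfkfb1, the liver form, averaged 0.412 RPKM in osteoblasts and 0.253 RPKM in chondrocytes.

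Aldolase splits the phosphorylated hexose into trioses. Aldoc, the aldolase known from brain, showed the largest ratio among the tested genes of this set, with 0.389, 0.296 and 0.391 RPKM in osteoblasts, against 9.65, 7.36 and 5.36 RPKM in chondrocytes. That is 20.8-fold higher in chondrocytes (log2 difference -2.61 ± 0.18 SE, limma adjusted p = 2.56e-05), and only the chondrocyte libraries brought the gene past the filter. Aldoa, the general and muscle form, remained the main aldolase in both, with 120.2, 137.5 and 105.9 RPKM in osteoblasts, against 84.7, 113.4 and 86.8 RPKM in chondrocytes. Its groups overlapped and it was not called (0.35, and -0.15 under median-of-ratios scaling), but without chondrocyte replicate 2 it was called higher (0.49, limma adjusted p = 0.0117). The 8 neuron and glia markers summed to 11.4 to 13.2 RPKM in osteoblasts and 36.9 to 55.3 RPKM in chondrocytes, 2 of the 8 averaged at least 1 RPKM in each cell type, and S100b, a gene that cartilage also expresses, made up 33.8 to 53.4 RPKM of the chondrocyte sums. Snap25, a defining gene of neurons, was at the table's floor in the chondrocyte libraries. Aldoa held 99.7% ± 0.0788 of aldolase RPKM in osteoblasts and 92.6% ± 2.47 in chondrocytes (± SD, n = 3 each).

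The later steps, from triose phosphate to pyruvate, held the most abundant RNAs. Gapdh, the oxidising step, had 407, 490 and 377 RPKM in osteoblasts, against 197, 331 and 205.0 RPKM in chondrocytes (log2 difference 0.83 ± 0.22 SE, limma adjusted p = 0.011). Pgam1, the main phosphoglycerate mutase, had 94.3, 106.2 and 85 RPKM in osteoblasts, against 40.1, 59.6 and 40.6 RPKM in chondrocytes (1.03 ± 0.18 SE, limma adjusted p = 0.00148). Neither gene's groups overlapped, but both calls were lost under median-of-ratios scaling, at 0.32 and 0.53. Tpi1, triosephosphate isomerase, had 81.2, 89.7 and 79.4 RPKM in osteoblasts, against 50.1, 89.1 and 54.4 RPKM in chondrocytes, and Pgk1, an ATP-producing kinase, had 52.9, 64.4 and 52.4 RPKM in osteoblasts, against 40.5, 101.3 and 45.1 RPKM in chondrocytes. For both, chondrocyte replicate 2 lay among or above the osteoblast libraries and the others lay below. Neither was called, at 0.41 and -0.02. Without that library both were called higher in osteoblasts, at 0.66 and 0.39 (limma adjusted p = 0.000914 and 0.0223). Pgam2, the muscle mutase, had 2.64, 1.24 and 3.35 RPKM in osteoblasts, against 0.295, 0.295 and 0.215 RPKM in chondrocytes, 8.98-fold higher in osteoblasts (1.37 ± 0.23 SE, limma adjusted p = 0.00132). Only the osteoblast libraries brought it past the filter. The 14 skeletal muscle markers summed to 4.38, 3.26 and 2.96 RPKM in osteoblasts, against 15.6, 43.4 and 11.3 RPKM in chondrocytes. Tnnt3, a troponin, made up most of the sum in chondrocytes (13.1, 40.1 and 9.16 RPKM), 1 of the 14 markers averaged at least 1 RPKM in osteoblasts and 2 did in chondrocytes, and Ckm, muscle creatine kinase, was at the table's floor in all 6 libraries. Actn3, an actinin of fast muscle fibres, was higher in osteoblasts with no overlap, at 2.34, 1.64 and 1.13 RPKM in osteoblasts, against 0.0619, 0.0823 and 0.0965 RPKM in chondrocytes. Myh3 and Actn2 also had no overlap and were higher in osteoblasts, though under 0.1 RPKM in every library. Tnnt3 and Tnni2, another troponin, had no overlap and were higher in chondrocytes. Tnni2 had 0.389, 0.4 and 0.222 RPKM in osteoblasts, against 1.83, 2.67 and 1.71 RPKM in chondrocytes. The other muscle markers of the list overlapped. The part of these muscle genes in the Pgam2 difference was not tested.

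Enolase makes phosphoenolpyruvate. Eno1, the general form, had 124, 141 and 104 RPKM in osteoblasts, against 130, 178 and 116 RPKM in chondrocytes, with overlapping groups and no call as deposited (log2 difference -0.18, limma adjusted p = 0.405). It was lower in osteoblasts under median-of-ratios scaling (-0.69, limma adjusted p = 0.0382). Its level is uncertain, since the near-identical copy Gm5506 also took reads, 23.3, 25.9 and 35.2 RPKM in osteoblasts and 29.9, 48.0 and 26.1 RPKM in chondrocytes; that copy was named after its values were seen. Eno2, the form of neurons, had 10.2, 9.26 and 9.95 RPKM in osteoblasts, against 4.45, 2.62 and 4.77 RPKM in chondrocytes. Every osteoblast library was higher (1.16 ± 0.18 SE, limma adjusted p = 0.000951). Of the neuron and glia markers, Tubb3, a tubulin of neurons, had 6.86, 8.65 and 6.38 RPKM in osteoblasts, against 0.0173, 0.0518 and 0.0485 RPKM in chondrocytes. Stmn2, a microtubule regulator of neurons, had 0.757, 0.716 and 0.719 RPKM in osteoblasts, against 0.0313, 0.0468 and 0.0732 RPKM in chondrocytes. Both were higher in osteoblasts with no overlap, as Eno2 was, and their part in its difference was not tested. Eno3, the muscle form, averaged 7.92 ± 0.462 RPKM in osteoblasts and 4.62 ± 0.491 RPKM in chondrocytes (mean ± SD, n = 3 each). It was called as deposited (0.67, limma adjusted p = 0.000984) and lost under median-of-ratios scaling.

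Pyruvate kinase makes pyruvate and ATP. Pkm had 241, 247 and 218 RPKM in osteoblasts, against 121, 171 and 122 RPKM in chondrocytes, with no overlap (log2 difference 0.78 ± 0.16 SE, limma adjusted p = 0.00317; 0.28 and not called under median-of-ratios scaling). The gene has a pair of mutually exclusive exons of the same length. The downstream one gives the M2 form of growing cells and the upstream one the M1 form of muscle and brain. Both exons are printed from the GENCODE M21 annotation of build GRCm38, plus strand, because the transcript shares turn on them, with capitals at the 64 of 167 bases that differ (61.7% identity). They lie at chr9:59675568-59675734 (in NM_011099) and chr9:59675029-59675195 (in NM_001253883), and each is exon 9 of the 11 exons of its transcript.
Pkm M2 exon: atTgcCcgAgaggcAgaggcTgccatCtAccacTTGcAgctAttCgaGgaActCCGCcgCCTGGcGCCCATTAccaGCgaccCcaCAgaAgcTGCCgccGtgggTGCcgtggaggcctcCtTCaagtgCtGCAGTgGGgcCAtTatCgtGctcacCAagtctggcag
Pkm M1 exon: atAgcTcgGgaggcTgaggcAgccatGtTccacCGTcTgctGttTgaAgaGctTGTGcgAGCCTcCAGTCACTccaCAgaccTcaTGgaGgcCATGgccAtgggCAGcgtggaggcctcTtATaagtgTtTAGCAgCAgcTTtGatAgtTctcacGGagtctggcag
The transcript with the M2 exon held 218, 223 and 198 RPKM in osteoblasts, against 104, 154 and 104 RPKM in chondrocytes. The transcript with the M1 exon held 23.2, 24.1 and 20.0 RPKM in osteoblasts, against 17.2, 16.9 and 17.9 RPKM in chondrocytes. The M2 transcript thus made up 90.5% ± 0.321 of Pkm in osteoblasts and 87.1% ± 2.6 in chondrocytes (± SD, n = 3 each). It was the main form in every library. Its share was 90.4%, 90.2% and 90.8% in osteoblasts, against 85.8%, 90.1% and 85.4% in chondrocytes, so chondrocyte replicate 2 came close to the osteoblast libraries. How reads were divided between transcripts is not stated. Ptbp1, a splicing factor that represses the M1 exon, averaged 107.0 RPKM in osteoblasts and 79.0 RPKM in chondrocytes (0.43, limma adjusted p = 0.013; not called under median-of-ratios scaling) and was named after its values were seen.

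Lactate dehydrogenase joins pyruvate and lactate through A and B subunits. Ldha, the muscle subunit that favours lactate formation, had 222, 248 and 197 RPKM in osteoblasts, against 123.3, 152 and 116 RPKM in chondrocytes (log2 difference 0.77 ± 0.15 SE, limma adjusted p = 0.00254; 0.26 and not called under median-of-ratios scaling). Ldhb, the heart subunit, had 5.05, 5.95 and 4.96 RPKM in osteoblasts, against 32.8, 24.1 and 27.3 RPKM in chondrocytes. It was 5.27-fold higher in chondrocytes with no overlap (-2.19 ± 0.13 SE, limma adjusted p = 1.27e-05). Ldha therefore held 97.8%, 97.7% and 97.5% of lactate dehydrogenase RPKM in osteoblasts, against 79.0%, 86.4% and 80.9% in chondrocytes, and Ldhb held the rest.

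Lactate leaves or enters cells through monocarboxylate transporters. Slc16a1 encodes MCT1, which carries lactate both ways, and had 7.58, 8.62 and 8.52 RPKM in osteoblasts, against 11, 12.4 and 14.1 RPKM in chondrocytes (log2 difference -0.54 ± 0.11 SE, limma adjusted p = 0.004). Slc16a3 encodes MCT4, the exporter of glycolytic cells, and had 13.3, 17 and 11.9 RPKM in osteoblasts, against 3.07, 13.1 and 2.79 RPKM in chondrocytes. Chondrocyte replicate 2 lay within the osteoblast range for Slc16a3 and the other chondrocyte libraries far below it. Its call (1.31 ± 0.48 SE, limma adjusted p = 0.0406) was lost under all 4 other scalings and without any of osteoblast replicates 1 to 3 or chondrocyte replicates 1 and 3 (limma adjusted p = 0.0735 to 0.126). Without chondrocyte replicate 2 the difference was 1.93. Slc16a1 held 37.2% ± 4.08 of the summed RPKM of both transporters in osteoblasts and 70.1% ± 18.7 in chondrocytes (± SD, n = 3 each). Bsg, the chaperone that takes MCT1 and MCT4 to the membrane, averaged 199 RPKM in osteoblasts and 195 RPKM in chondrocytes and was not called; it too was named after its values were seen.

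The mitochondrial pyruvate carrier and pyruvate dehydrogenase were 1.34-fold to 1.52-fold higher in osteoblasts as deposited. The carrier subunits Mpc1 and Mpc2 averaged 18.3 ± 1.92 and 22.7 ± 1.39 RPKM in osteoblasts, and 12.2 ± 1.79 and 15.2 ± 2.24 RPKM in chondrocytes (mean ± SD, n = 3 each). Mpc2 had 23.6, 23.5 and 21.1 RPKM in osteoblasts, against 15.3, 12.8 and 17.3 RPKM in chondrocytes. Pdha1, the alpha subunit of pyruvate dehydrogenase, had 42.4, 44.1 and 40.0 RPKM in osteoblasts, against 29.3, 26.8 and 27.2 RPKM in chondrocytes. Pdhb, its beta subunit, followed with 29.6, 29.9 and 27.9 RPKM in osteoblasts, against 20.5, 23.9 and 20.8 RPKM in chondrocytes. All 4 genes had no overlap and log2 differences of 0.41 to 0.59 (limma adjusted p = 0.00102 to 0.00711), close to the shift of the median gene, and none was called under median-of-ratios scaling (-0.08 to 0.09). The split between the carrier subunits differed by less than the spread, with Mpc1 at 44.5% ± 2.43 of carrier RPKM in osteoblasts and 44.6% ± 2.04 in chondrocytes. Pdha1 held 58.9%, 59.7% and 58.9% of the summed RPKM of Pdha1 and Pdhb in osteoblasts, against 58.8%, 52.8% and 56.7% in chondrocytes, a mean difference of 3.05 percentage points with no overlap.

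Pyruvate dehydrogenase kinases switch that enzyme off. Pdk1, a known target of hypoxia-inducible factor, had 4.11, 5.17 and 4.87 RPKM in osteoblasts, against 7.76, 8.22 and 7.99 RPKM in chondrocytes, with no overlap (log2 difference -0.66 ± 0.11 SE, limma adjusted p = 0.00108). Pdk2, the widespread form, had 11, 10.8 and 11 RPKM in osteoblasts, against 7.01, 2.6 and 7.57 RPKM in chondrocytes, with the lowest value in chondrocyte replicate 2. Its call (0.92, limma adjusted p = 0.0306) was lost without osteoblast replicate 1, 2 or 3 (limma adjusted p = 0.0771, 0.073 and 0.0769) and under all 4 other scalings. The difference was 0.52 without chondrocyte replicate 2. Pdk3 averaged 9.38 ± 0.771 RPKM in osteoblasts and 6.6 ± 1.15 RPKM in chondrocytes (0.46, limma adjusted p = 0.0176), a call lost without osteoblast replicate 2 (limma adjusted p = 0.0718) and under all 4 other scalings. Pdk4, the form induced by fasting and fatty acids, had 5.07, 3.13 and 3.48 RPKM in osteoblasts, against 1.64, 6.91 and 1.22 RPKM in chondrocytes. It was not called, at 0.43, while without chondrocyte replicate 2 it was higher in osteoblasts (1.0, limma adjusted p = 0.00163). Pdk1 held 16.3% ± 1.87 of the RPKM of the 4 kinase genes in osteoblasts and 33.9% ± 1.53 in chondrocytes (± SD, n = 3 each).

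Shares of a step do not depend on how libraries are scaled. Of 26 shares compared in 12 steps with several genes, 20 had groups that did not overlap. Single tested genes did not overlap in either direction at 75.6% as deposited, so this count is not read as a result. Shares within a step are also tied, since a rise of one is a fall of another. Each of the 20 shares gave the smallest p that 3 against 3 libraries allow, 0.1 (exact two-sided permutation test, Benjamini-Hochberg adjusted p = 0.13), so this design cannot pass 0.05. Among the shares with no overlap, those of Pfkfb3, Hk2, Hk1 and Slc2a1 differed by -45.2, -43.7, 42.7 and -41.5 percentage points (osteoblast minus chondrocyte). The summed RPKM of all 37 genes was 1656, 1843 and 1517 in osteoblasts, against 1100, 1494 and 1067 in chondrocytes (exact two-sided permutation p = 0.1, the smallest possible). As a part of each library's total it averaged 0.536% ± 0.0384 in osteoblasts and 0.44% ± 0.0976 in chondrocytes (± SD, n = 3 each), with overlapping groups (exact two-sided permutation p = 0.3). Of 17 step totals, 8 were higher in osteoblasts with no overlap and 2, glucose uptake and hexokinase, were higher in chondrocytes (exact two-sided permutation p = 0.1, Benjamini-Hochberg adjusted p = 0.17). Single tested genes did so at 60.4% and 15.3%, so these counts are not read as a result about the steps. Under median-of-ratios scaling 0 steps were higher in osteoblasts with no overlap and 6 were higher in chondrocytes. The share of single genes was not counted under that scaling.

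**Figure D3:**
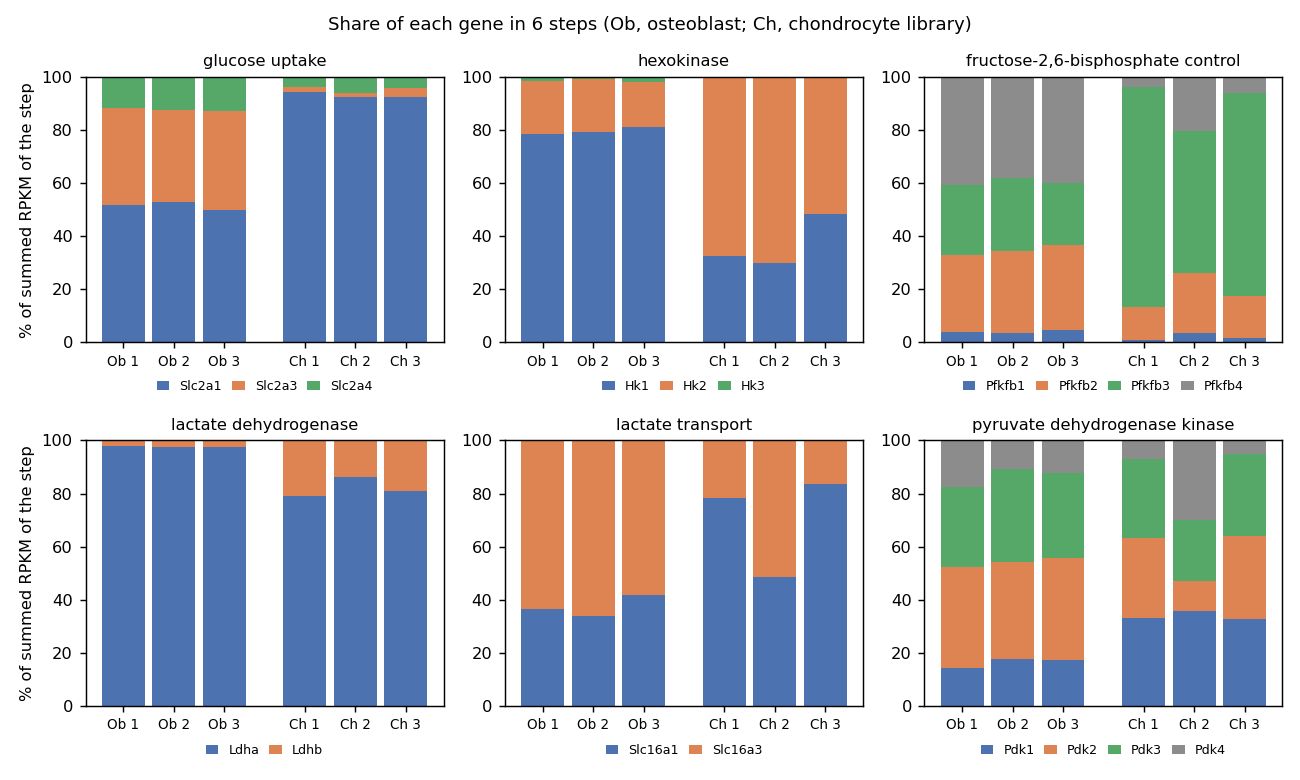
Share of each isoenzyme gene in the summed RPKM of its step (%, 1 stacked bar a library) for 6 steps, osteoblast libraries left of chondrocyte libraries. Slc2a1 makes up 51.6% of transporter RPKM in osteoblasts and 93.1% in chondrocytes, and Hk1 makes up 79.8% of hexokinase RPKM in osteoblasts and 37.1% in chondrocytes.

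Chondrocyte replicate 2 stood apart from chondrocyte replicates 1 and 3 across these genes. Of 33 glycolysis genes with a mean of at least 1 RPKM in chondrocytes, 8 (24.2%) were more than 1.5-fold above the mean of the other chondrocyte libraries and 4 (12.1%) were as far below. Of all 10270 such genes, 4.36% were above and 19.4% were below, and the median ratio was 0.836, against 1.04 for the glycolysis genes. The ratio was 4.85 for Pdk4, 4.46 for Slc16a3, 2.5 for Slc2a4, 2.37 for Pgk1, 1.9 for Pfkfb4, 1.71 for Tpi1, 1.65 for Gapdh and 1.63 for Slc2a1. It was 0.301 for Pfkfb3, 0.356 for Pdk2, 0.568 for Eno2 and 0.664 for Hk1. The same library had the highest summed skeletal muscle markers of the chondrocyte libraries (43.4 RPKM, against 15.6 and 11.3). Tnnt3 alone made up 40.1 RPKM of that sum, against 13.1 and 9.16 RPKM in replicates 1 and 3, so most of the difference was this troponin gene. Replicate 2 was also the highest for Col10a1, the collagen of hypertrophic cartilage (58.4 RPKM, against 19.9 and 3.32), a gene named after its values were seen. The part of these in the result was not tested. All 7 genes lower in osteoblasts were called in each of the 6 fits with 1 library left out.

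**Figure D4:**
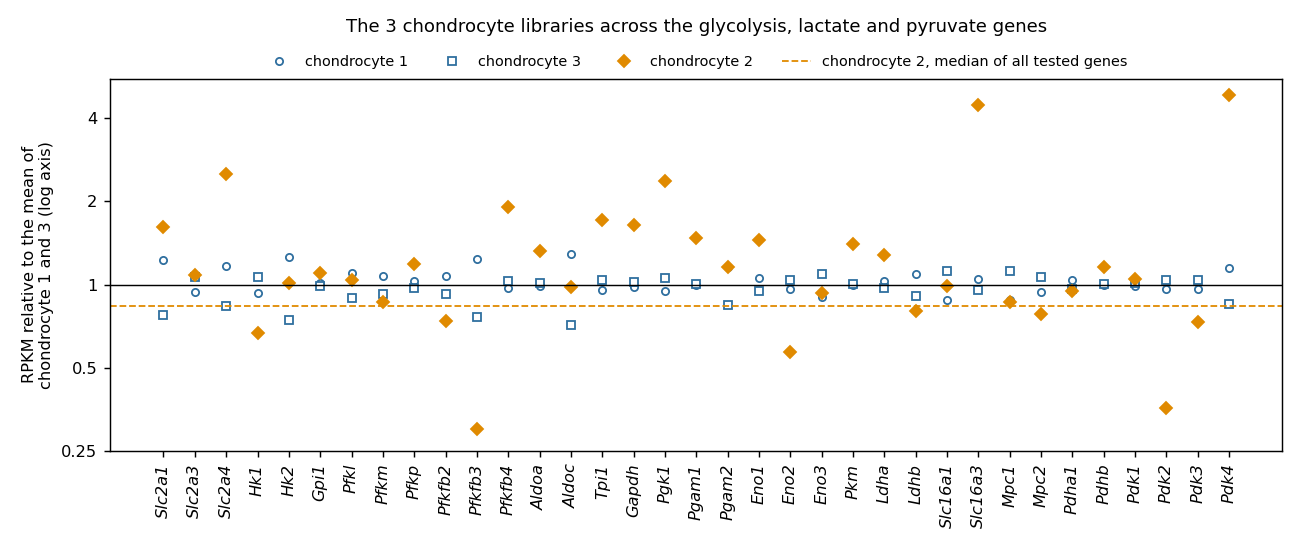
RPKM of each chondrocyte library over the mean of chondrocyte replicates 1 and 3 (log axis) for the 35 tested glycolysis, lactate and pyruvate genes. Replicate 2 reaches 4.85 for Pdk4 and lies at 0.301 for Pfkfb3, and its median over tested genes with a mean of at least 1 RPKM in chondrocytes (dashed) is 0.836.

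Regulators of glycolytic genes were counted from a list with 20 tested genes. Of these, 7 were higher in osteoblasts, 3 were lower and 10 were not called, where 55.5% of all tested genes were higher and 13.5% lower. Under median-of-ratios scaling 3 were higher and 8 were lower, against 30.4% and 30.9% of all tested genes. Hif1a, the oxygen-controlled subunit of hypoxia-inducible factor, had 16.8, 18.2 and 16.4 RPKM in osteoblasts, against 41.7, 34.7 and 35.8 RPKM in chondrocytes (log2 difference -1.08 ± 0.10 SE, limma adjusted p = 0.000105), and its protein is known to be controlled mainly by degradation. Txnip, which limits glucose uptake, had 67.6, 49.8 and 72.1 RPKM in osteoblasts, against 241.7, 103.0 and 161.9 RPKM in chondrocytes (-1.34 ± 0.30 SE, limma adjusted p = 0.00589). The third lower one was Foxk1, at -0.27. Mycn and Esrra, a nuclear receptor of mitochondrial genes, were higher in osteoblasts by 2.02 and 1.74, and Foxk2 by 1.24 (limma adjusted p = 0.000167 at most). Mycn had 4.07, 4.39 and 3.55 RPKM in osteoblasts, against 0.298, 0.183 and 0.225 RPKM in chondrocytes, and was tested only because of its osteoblast libraries. A pair of genes known to respond to low oxygen, named after their values were seen, lay on opposite sides. Bnip3, a mitophagy receptor, had 7.58, 6.23 and 6.8 RPKM in osteoblasts, against 36.6, 60.1 and 24.6 RPKM in chondrocytes. Vegfa, the vessel growth factor, had 20.0, 19.4 and 19.4 RPKM in osteoblasts, against 5.88, 10.7 and 6.92 RPKM in chondrocytes.

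Hypoxia-inducible factor binds the core letters ACGTG or GCGTG, and Slc2a1, Hk2 and Pfkfb4 are known as its targets in other cells. Their promoters and that of Ldhb are shown with those letters, since 3 of these genes were lower in osteoblasts and Pfkfb4 was higher. They are the 250 bases before the transcription start from RefSeq (GRCm38.p6), given 5′ to 3′ on the gene's strand, with capitals at each ACGTG or GCGTG and their reverse complements CACGT and CACGC. The windows are Slc2a1 at chr4:119108495-119108744 (plus strand), Hk2 at chr6:82774455-82774704 (minus strand), Ldhb at chr6:142507958-142508207 (minus strand) and Pfkfb4 at chr9:108991652-108991901 (plus strand).
Slc2a1 promoter: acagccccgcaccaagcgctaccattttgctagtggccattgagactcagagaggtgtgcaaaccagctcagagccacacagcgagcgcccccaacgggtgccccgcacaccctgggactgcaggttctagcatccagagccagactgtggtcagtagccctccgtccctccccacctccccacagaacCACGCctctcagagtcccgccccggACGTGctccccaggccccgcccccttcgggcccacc
Hk2 promoter: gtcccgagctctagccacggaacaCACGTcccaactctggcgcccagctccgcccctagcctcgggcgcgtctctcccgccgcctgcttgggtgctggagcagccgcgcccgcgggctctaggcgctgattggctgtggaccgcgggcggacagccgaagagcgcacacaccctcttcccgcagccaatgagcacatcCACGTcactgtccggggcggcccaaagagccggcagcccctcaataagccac
Ldhb promoter: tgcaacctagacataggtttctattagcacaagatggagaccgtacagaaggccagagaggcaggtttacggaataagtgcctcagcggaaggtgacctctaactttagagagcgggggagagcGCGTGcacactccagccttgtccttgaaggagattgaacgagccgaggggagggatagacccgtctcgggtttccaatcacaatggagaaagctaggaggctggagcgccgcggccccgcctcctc
Pfkfb4 promoter: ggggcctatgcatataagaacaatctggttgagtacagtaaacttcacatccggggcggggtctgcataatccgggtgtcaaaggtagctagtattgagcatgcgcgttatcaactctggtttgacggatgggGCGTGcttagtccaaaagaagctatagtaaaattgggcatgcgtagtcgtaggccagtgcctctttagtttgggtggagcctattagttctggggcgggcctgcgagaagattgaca
The letters occurred 2 times in the Slc2a1 window, 2 times in that of Hk2, and 1 time in those of Ldhb and Pfkfb4. The search overlaps the E-box CACGTG, which holds ACGTG. At least 1 match stood in a promoter of 31 of the 35 glycolysis genes with a promoter in the table (88.6%), against 5343 of 8417 tested genes (63.5%). It stood in all 7 genes lower in osteoblasts under every scaling and in 2 of the 4 higher ones that had a promoter. With 88.6% of the glycolysis genes holding a match, these counts are not read as a difference between the calls. A gene counted if any of its promoters held a match, and glycolysis genes had more promoters each (55 for 35 genes, against 10819 for 8417). Counted by promoter, 74.5% of 55 held a match, against 57.1% of 10819 promoters of tested genes and 38.6% of all 32851. These matches describe letters in a window.

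The regulators and the pathways next to glycolysis made up 10 lists with 88 tested genes, of which 53 were higher and 10 were lower in osteoblasts, where 55.5% of all tested genes were higher and 13.5% lower. The share is near that background and is not a result about these genes together. Their median log2 difference was 0.71, against 0.43 over all tested genes. Under median-of-ratios scaling 40 were higher and 26 were lower, where 30.4% and 30.9% of all tested genes were. In these lists 5 called genes met the filter through osteoblasts alone (Slc2a9, Slc16a7, Slc16a10, Slc25a13 and Mycn) and Pdp2 through chondrocytes alone, so the filter fixed their direction. Of the tricarboxylic acid cycle, all 17 tested genes were higher as deposited (median 1.04), and 15 of 17 under median-of-ratios scaling (median 0.54), the exceptions being Idh3g and Sdhd. Mdh2, which remakes oxaloacetate, had 99.6, 106.0 and 90.9 RPKM in osteoblasts, against 32.2, 31.8 and 40.2 RPKM in chondrocytes (1.49 ± 0.13 SE, limma adjusted p = 5.81e-05). Cs, citrate synthase, had 38.3, 41.8 and 37.6 RPKM in osteoblasts, against 13.1, 13.7 and 16.3 RPKM in chondrocytes, and Sdhc, a subunit of succinate dehydrogenase, had 48.3, 50.5 and 45.6 RPKM in osteoblasts, against 15.8, 18 and 19.7 RPKM in chondrocytes. No groups overlapped in these 3 genes. The pentose phosphate pathway, which branches off at glucose-6-phosphate and makes NADPH, had 7 of 8 genes higher under both scalings, with medians of 1.03 and 0.59. Its largest differences were Taldo1 and Pgls, both at 1.22, and G6pdx, the entry enzyme of the pathway, at 1.07.

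Counts in the other lists are on deposited values unless another scaling is named. Over all tested genes 55.5% were higher and 13.5% lower, and counts in such short lists are not read as results. Of 6 tested genes of the pyruvate dehydrogenase complex and its phosphatases, 4 were higher in osteoblasts, led by Dlat (0.98) and Pdhx (0.91), and the phosphatases Pdp2 and Pdp1, which switch the enzyme on, were lower (-0.94 and -0.54). Of 6 other monocarboxylate transporters and partners, 2 were higher and 3 were lower. Slc16a4 had 1.25, 1.13 and 1.59 RPKM in osteoblasts, against 15.2, 13.3 and 11.8 RPKM in chondrocytes (-2.63 ± 0.13 SE). Emb, the chaperone embigin, had 2.32, 2.6 and 1.89 RPKM in osteoblasts, against 8.23, 8.51 and 6.02 RPKM in chondrocytes (-1.39 ± 0.15 SE). Groups did not overlap for either. Glycogen metabolism had 5 genes higher and 1 lower of 13 as deposited, and 3 higher and 6 lower under median-of-ratios scaling. Under that scaling 30.4% of all tested genes were higher and 30.9% lower. Pygb, the brain phosphorylase, was higher in osteoblasts (29.1 RPKM, against 10.4 RPKM in chondrocytes, 1.48), and Pygl, the liver phosphorylase, was lower (2.69 RPKM, against 9.52 RPKM in chondrocytes, -1.47). Of 8 genes of the cytosolic NADH shuttles 6 were higher, with Slc25a13 at 1.68, and Gpd2 was lower at -0.57. Gluconeogenesis had 2 of 4 genes higher, Pcx and Slc37a4, and neither under median-of-ratios scaling. Of 4 other glucose and fructose transporters, Slc2a9 (2.18 RPKM in osteoblasts, against 0.118 RPKM in chondrocytes) and Slc2a8 (8.52 RPKM in osteoblasts, against 4.24 RPKM in chondrocytes) were higher in osteoblasts, and of 2 other glycolytic enzymes Adpgk, an ADP-dependent glucokinase, was higher (0.77).

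**Figure D5:**
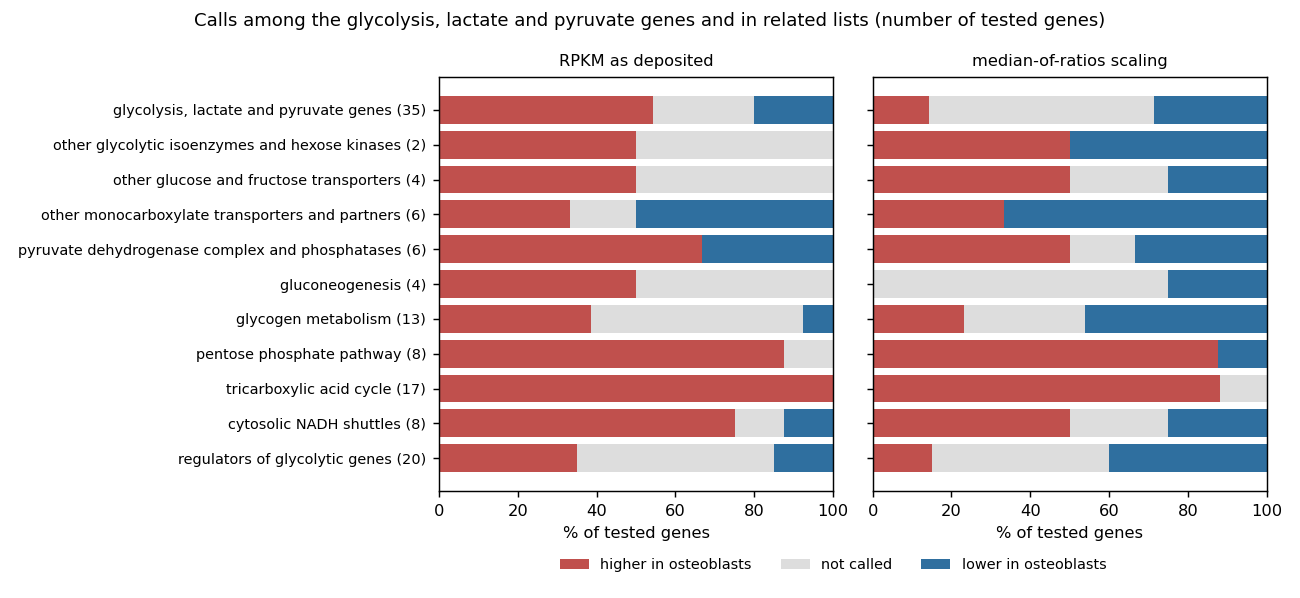
Percent of tested genes called higher, not called or called lower in osteoblasts (limma, n = 3 libraries each) among the glycolysis, lactate and pyruvate genes and in 10 related lists, as deposited and after median-of-ratios scaling. After scaling, the tricarboxylic acid cycle has 15 of 17 genes higher, and the glycolysis genes have 5 higher and 10 lower of 35. Over all tested genes 30.4% were higher and 30.9% lower after scaling, against 55.5% and 13.5% as deposited.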

How the data were processed

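The authors deposited one table of RPKM for 31055 RefSeq transcripts in 6 libraries, with 0.0001 as its lowest value. Reads were aligned with TopHat2 2.0.8 to mm9, per the submitters' processing notes. The read counter, and how reads were divided between transcripts or near-identical genes, are not given in the sources used here, so levels of genes with near-identical copies, such as Gapdh and Eno1, are uncertain. The table holds no read counts. Depth was estimated from steps in low values, of which 52.9% to 60.7% a library lay within 0.05 of a whole read, against 10% by chance.

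The transcripts of each symbol were added up. A gene had to reach 1 RPKM in 3 or more libraries to be tested, and 11218 did. Differences in log2(RPKM + 1) were tested two-sided with limma 3.58.1 (R 4.3.3), using a variance trend, robust moderation and Benjamini-Hochberg adjustment over all tested genes, and a call at adjusted p under 0.05. The added 1 shrinks differences of genes near 0, and folds are ratios of mean RPKM. Step totals and shares had exact permutation tests (SciPy 1.17.1). The limma fit was also run on simulated data in which few genes changed and the median gene had no shift. The deposited values differ in both respects, so that run does not bear on the calls reported here.

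The genes, lists and tests were chosen with earlier results of these data known. Among the 37 genes, every library's value is given for those called with a log2 difference of at least 1 in size, for the highest gene of a step and where a scaling turned the sign. From each related list at most the 3 largest calls each way are named, some by library values and others by means or the log2 difference alone. Alternatives were pseudocounts of 0.1 and 5, 2 other filters, 4 scalings (median of ratios, equal RPKM sum, the same without matrix genes, upper quartile), no trend, replicate block, 1 transcript a symbol and each library left out. Coordinates come from RefSeq or GENCODE M21 on GRCm38, not from the table's build.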

Additional observations from a re-analysis of the deposited data

How the results depend on the processing

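The calls depended mainly on the scaling, which by its construction moves all genes of a library together. The number of glycolysis genes higher in osteoblasts was 19 as deposited, 5 under median-of-ratios, 9 under equal RPKM sum without matrix genes and 7 under upper-quartile scaling. In the same order 7, 10, 8 and 10 were lower. Over all tested genes 55.5%, 30.4%, 39.5% and 33.0% were higher in that order, and 13.5%, 30.9%, 24.2% and 28.4% were lower. Under median-of-ratios scaling the log2 difference turned for Gpi1 (-0.05), Pfkl (-0.41), Pfkp (-0.08), Pfkfb2 (-0.09), Aldoa (-0.15), Tpi1 (-0.09) and Pdhb (-0.08), and under upper-quartile scaling for Pfkl (-0.35), Pfkp (-0.03), Pfkfb2 (-0.05), Aldoa (-0.1), Tpi1 (-0.04) and Pdhb (-0.03). Pfkl was also at -0.08 with equal RPKM sums and at -0.25 without matrix genes. Step totals turned under median-of-ratios scaling for glucose-6-phosphate isomerase (-0.05), phosphofructokinase (-0.48), aldolase (-0.26), triosephosphate isomerase (-0.09), lactate transport (-0.23) and pyruvate dehydrogenase kinase (-0.22). Under upper-quartile scaling they turned for phosphofructokinase (-0.42), aldolase (-0.2), triosephosphate isomerase (-0.04), lactate transport (-0.17) and pyruvate dehydrogenase kinase (-0.16), and with equal RPKM sums for 6-phosphofructokinase (-0.13). Step totals higher in osteoblasts with no overlap were 8 as deposited, 0 under median-of-ratios and 1 under upper-quartile scaling, and those higher in chondrocytes were 2, 6 and 6. As deposited, 60.4% and 15.3% of single tested genes did so, and that share was not counted under the other scalings. In the related lists 26 genes were lower under median-of-ratios scaling, against 10 as deposited, where 30.9% and 13.5% of all tested genes were. The Pfkl share differed by -0.349 percentage points with 1 transcript a symbol.

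With each library left out, 15 to 23 glycolysis genes were higher in osteoblasts (23 without chondrocyte replicate 2) and 7 were lower each time. Over these fits the log2 difference ranged for Slc2a4 (-0.3 to 0.14), Pfkl (-0.01 to 0.13), Pgk1 (-0.26 to 0.39), and the totals of phosphofructokinase (-0.03 to 0.1), phosphoglycerate kinase (-0.26 to 0.4) and enolase (-0.19 to 0.08). The shares ranged for Mpc1 (-1.24 to 1.22 percentage points) and Pdk4 (-5.03 to 7.47). No pairing by replicate number was seen: deviations from the group means of same-numbered libraries correlated at 0.079, 0.01 and -0.155, and not every library was closest to its own number. This check cannot exclude that same-numbered libraries shared animals, which the labels do not state. With the replicate block 18 genes were higher and 7 lower, with Pfkp lost (limma adjusted p = 0.0549). Counting Gm5506 with Eno1, an alternative added after seeing the data, left 19 higher and 7 lower. With 3 libraries a group, exact tests cannot pass 0.05, and genes near 1 RPKM rest on 53.8 to 71.7 reads a library for a 2 kb transcript.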

Other observations

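Marker genes of other cell types were summed in each library. Summed erythroid markers were 29.0, 64.2 and 40.9 RPKM in osteoblasts and 5.45, 29.1 and 20.2 RPKM in chondrocytes. Myeloid and osteoclast markers were 27.8, 33.1 and 27.1 RPKM in osteoblasts and 4.88, 3.56 and 11.8 RPKM in chondrocytes, with Lyz2 the highest. Tendon and fibroblast markers ranged from 110.9 to 172.7 RPKM in osteoblasts and from 81.0 to 403.6 RPKM in chondrocytes, with the highest value in chondrocyte replicate 3. Endothelial markers summed to 2.44 to 5.82 RPKM in osteoblasts and 4.97 to 9.14 RPKM in chondrocytes, adipocyte markers to 0.176 to 0.495 RPKM in osteoblasts and 3.01 to 6.72 RPKM in chondrocytes, and epithelial markers stayed under 1 RPKM in all 6 libraries. Their part in the glycolysis results was not tested.

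Some genes known from hypoxic or hypertrophic cartilage, named after their values were seen, were highest among chondrocytes in replicate 2. Car9, a carbonic anhydrase, had 0.265, 0.303 and 0.189 RPKM in osteoblasts, against 0.319, 2.68 and 0.554 RPKM in chondrocytes. P4ha1, a subunit of the collagen prolyl hydroxylase, had 50.8, 61.9 and 49.3 RPKM in osteoblasts, against 60.5, 95.7 and 65.4 RPKM in chondrocytes. Ihh, a signal of prehypertrophic chondrocytes, had 5.07, 3.9 and 6.24 RPKM in osteoblasts, against 1.35, 6.93 and 1.18 RPKM in chondrocytes. These are values of 1 library and no test was made of it.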
